A study of Mus musculus with 6 samples.

Results

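Matrix metalloproteinases (MMPs) and their tissue inhibitors (TIMPs) were examined in the RNA-seq libraries of mouse bone marrow mesenchymal stem cells (mBMSCs) under osteogenic induction with or without low-dose nickel. The members were 10 named genes, Mmp2, Mmp3, Mmp11, Mmp12, Mmp13, Mmp14, Mmp16, Timp1, Timp2 and Timp3, matched by gene name among the 54532 genes of the count table. All 10 were found and all 10 passed the filter on low counts, as did 14624 genes in all. The cells were primary, wild type and from bone, and both groups received osteogenic medium with β-glycerophosphate (10 mM), ascorbic acid (50 μg/mL) and dexamethasone (100 nM) over a period of 7 days. The Ni group (3 libraries) also received 0.1 μM nickel ions and the control group (3 libraries) received vehicle. The dexamethasone concentration is the one in the sample labels, and the methods text of the study gives another. The series describes the replicates of each condition as independent biological ones, but does not say whether they came from separate animals, so the p-values measure the spread between these libraries.

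MMPs are zinc-dependent endopeptidases that cleave collagens and other matrix proteins. Most are secreted as inactive proenzymes, while Mmp14 and Mmp16 encode membrane-anchored enzymes that can activate proMMP2 at the cell surface. TIMPs bind the active site of MMPs one to one, and TIMP2 also takes part in the activation of proMMP2 by MMP14. In bone, MMP13 is the collagenase of hypertrophic chondrocytes and osteoblasts and a known target of RUNX2, MMP2 and MMP14 are needed for normal skeletal remodeling, and MMP12 is the macrophage elastase.

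With all 6 libraries, no member passed the test between groups, and neither did any other gene. Under the quasi-likelihood test of edgeR, adjusted over all genes tested by the Benjamini-Hochberg method, 0 of 10 members were at an adjusted p under 0.05, beside 0% of the 14624 genes tested. Fitted log2 fold changes (Ni against control) were above 0 for 9 of the 10 members and for 7028 of the 14624 genes tested. The median was 0.43 for the members and -0.01 for all genes tested. The same share of all genes applies to the counts above 0 in the gene lists below. An unadjusted p under 0.05 was reached by 5 members with higher values in Ni (Mmp2, Mmp14, Mmp16, Timp1 and Timp2) and by 0 members with lower values, beside 7.59% of all genes tested that were higher and 5.83% that were lower at the same threshold. In 4 members (Mmp14, Mmp16, Timp1 and Timp2) every Ni library lay above every control library, and in 0 members every Ni library lay below, beside 7.97% and 6.71% of all genes tested. The count at an unadjusted p under 0.05 was 2 without control replicate 1 and 2 without control replicate 2, all higher in Ni, beside 4.07% and 4% of the genes tested in those fits that were higher. It was 3 without Ni replicate 1 and 3 without Ni replicate 3, again all higher, beside 4.24% and 4.64%. In bulk RNA, fewer cells of a type and less RNA per cell cannot be told apart. With 3 libraries against 3, an exact two-sided permutation test cannot go below p = 0.1.

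Control replicate 3 stood apart from the other controls, and most members passed the edgeR test without it but not with it. Over all genes tested, its mean distance (1 minus Pearson's r of log2 CPM, counts scaled to library size with TMM factors) was 0.0131 to the Ni libraries and 0.0220 to the other controls. It held the highest control value of all 10 members, and the highest value of all 6 libraries for Mmp3, Mmp12 and Timp3. Its level was 1.21 times the mean of control replicates 1 and 2 for Mmp11 and 10.1 times that mean for Mmp12, with the other 8 members in between. Without it, 8 of 10 members passed the edgeR test, all higher in Ni, at an adjusted p under 0.05, beside 8.69% of the 15044 genes then tested that passed higher and 6.49% that passed lower. The 2 that did not were Mmp3 and Mmp11, and the median log2 fold change of the members was 0.79. Because this library was the highest control for all 10 members, leaving it out lowers the control mean of each. The p-values of that fit, here and below, thus show how far the result depends on this library. They are not evidence of a difference between groups. The labels place this library in the control group, and it was kept there.

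**Figure D1:**
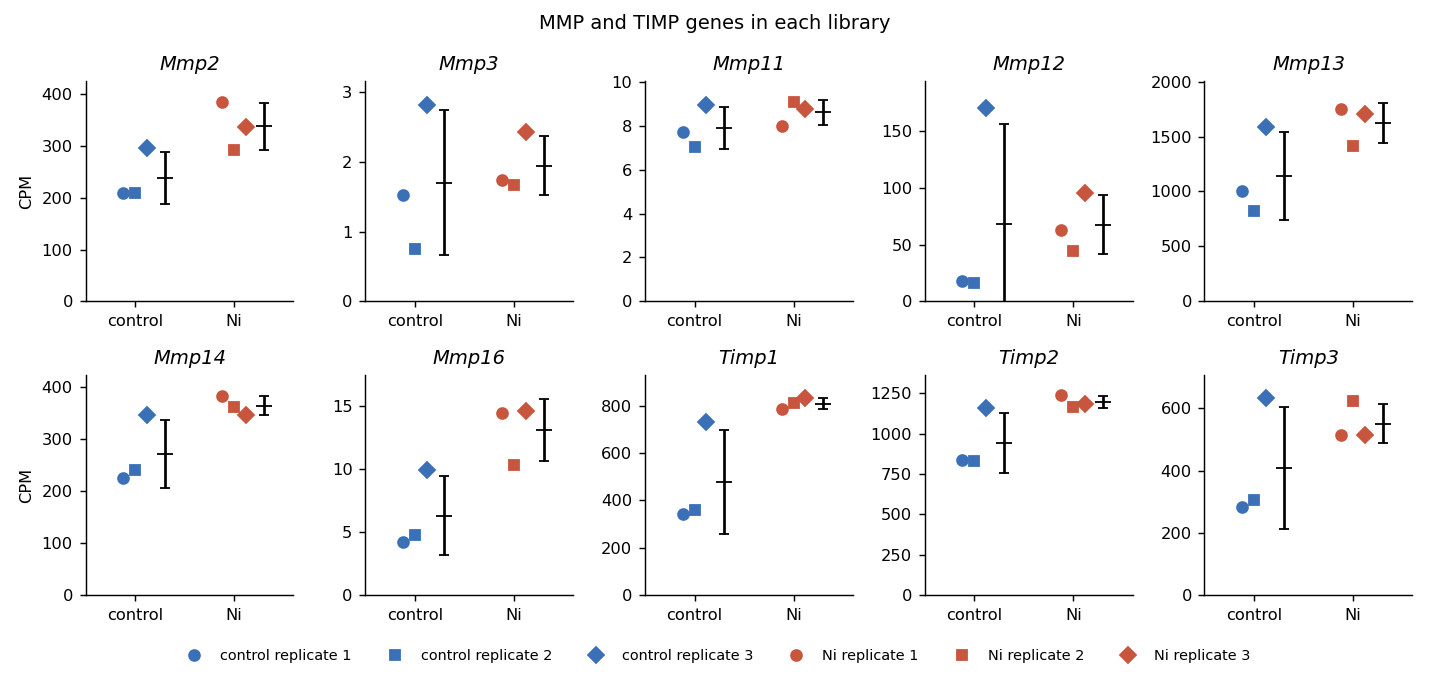
Level of each member in each library, in CPM scaled by TMM factors, on a linear axis that starts at 0 and differs between panels. Points are libraries, with one marker shape per replicate number, and bars give the mean and SD of 3 libraries (the lower bar of the Mmp12 controls is cut at 0). Control replicate 3 is the highest control in all 10 panels and lies above the 3 Ni libraries for Mmp3, Mmp12 and Timp3.

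The members spanned a wide range of abundance. Per length, Timp1, a secreted inhibitor, had the highest level, with a mean of 720 FPKM over the 6 libraries (reads scaled to gene length and library depth). Mmp13 followed at 513 FPKM and Timp2 at 272 FPKM. Each of these exceeded the next in 6 of 6 libraries. Mmp2, a gelatinase, was at 84.8 FPKM, above Timp3 at 58.5 FPKM in 6 of 6 libraries. Timp3, whose product binds to the matrix, and Mmp14 at 52.8 FPKM could not be put in order, since Timp3 was higher in 3 of 6 libraries. The remaining 4 members were lower. Mmp12 had a mean of 9.30 FPKM and a range from 2.18 to 23.3, and exceeded Mmp11 at 2.95 FPKM in 4 of 6 libraries. Mmp11 exceeded Mmp16 at 1.11 FPKM in 6 of 6 libraries, and Mmp16 exceeded Mmp3 at 1.01 FPKM in 4 of 6. Mmp12, Mmp11, Mmp16 and Mmp3 were all below the lowest of the other 6 members in every library.

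**Figure D2:**
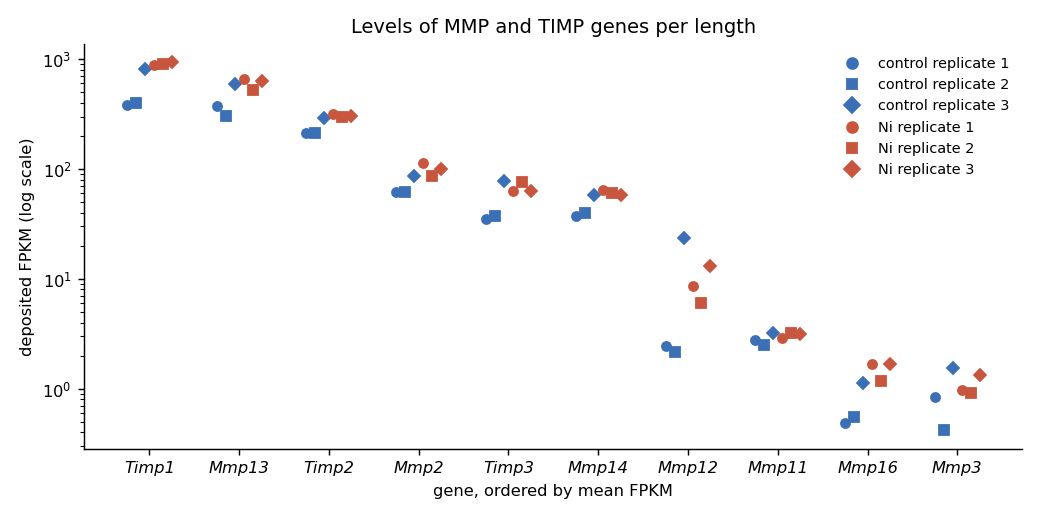
Level per length of the 10 members in FPKM on a log axis, ordered by the mean of the 6 libraries. Each point is a library, and colors mark control and Ni. Timp1, Mmp13 and Timp2 lead, and Mmp16 and Mmp3 have the lowest levels.

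Among the collagenases and stromelysins, Mmp13 (ENSMUSG00000050578, chr9:7272514-7283331, plus strand) was the most abundant MMP. It made up between 74.0% and 78.2% of the summed FPKM of the 7 MMP members in each library. Its level was 1004, 822 and 1591 CPM in control replicates 1, 2 and 3 and 1750, 1411 and 1702 CPM in Ni replicates 1, 2 and 3. The groups overlapped, because control replicate 3 exceeded Ni replicate 2. The mean was 1139 ± 402 CPM in controls and 1621 ± 183 CPM in Ni (SD, n = 3 each), a log2 fold change of 0.51 (SE 0.23, 95% confidence interval -0.00 to 1.02, edgeR adjusted p = 0.373). Leaving out control replicate 3 gave 0.83 (adjusted p = 0.000592).

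Mmp3 (ENSMUSG00000043613, chr9:7445822-7455975, plus strand), which encodes stromelysin 1, had few counts. Its counts were 28, 12 and 47 in the controls and 32, 29 and 44 in the Ni libraries, corresponding to 1.53, 0.756 and 2.82 CPM and to 1.74, 1.67 and 2.43 CPM. Control replicate 3 was the highest of the 6 libraries and control replicate 2 the lowest. The log2 fold change was 0.19 with an interval from -0.79 to 1.17 (edgeR adjusted p = 0.888), an interval that holds both lower and higher levels in Ni. Of the 1752 stretches of 50 bases in its transcripts, 8.39% also occur in other genes, mostly in Mmp10, and reads from these stretches could be assigned to either gene.

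Mmp11 (ENSMUSG00000000901, chr10:75923222-75936496, minus strand), or stromelysin 3, varied least. It was at 7.70, 7.05 and 8.94 CPM in the controls and at 7.98, 9.09 and 8.78 CPM in the Ni libraries. The ranges overlapped, and the coefficient of variation over all 6 libraries was 9.79%, against 86.1% for Mmp12. The log2 fold change was 0.13 (interval -0.25 to 0.50, edgeR adjusted p = 0.784), and without control replicate 3 it was 0.23 (adjusted p = 0.471). Exons of Mmp11 share 5.58% of their bases with Chchd10 on the other strand. The library kit does not mark strand, so reads from these bases cannot be told apart by strand. How the counting treated them is not given in the sources used here.

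Mmp12 (ENSMUSG00000049723, chr9:7344381-7369499, plus strand) was the member with the greatest spread. The counts were 329, 252 and 2838 in the controls and 1156, 769 and 1730 in the Ni libraries. In CPM these were 18.0, 15.9 and 170 against 62.8, 44.3 and 95.6. Control replicates 1 and 2 lay below all Ni libraries and control replicate 3 above them all. The group means were 68.0 ± 88.5 and 67.5 ± 26.0 CPM (SD, n = 3 each), with a log2 fold change of -0.01 (SE 1.06, interval -2.76 to 2.74, edgeR adjusted p = 0.999). Leaving out control replicate 3 gave 2.00 (SE 0.38, adjusted p = 0.0320). The difference between groups thus could not be given a direction from all 6 libraries.

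Mmp12 was set beside the markers of macrophages, the cells for which its enzyme is named. Of 15 macrophage markers all were tested, 6 had lower values in Ni at an unadjusted p under 0.05 (Itgam, Ptprc, Tyrobp, Fcer1g, Aif1 and Marco), 0 had higher ones, and the median log2 fold change was -0.19. At that threshold 5.83% of all genes tested were lower and 7.59% higher. The summed level of the 15 markers was 25478 to 29884 CPM in the controls and 24838 to 26063 CPM in Ni, with control replicate 3 the highest library. The sum followed Lyz2, at 15097 CPM in control replicate 3 and between 9616 and 12596 CPM in the others. The markers did not move together in that library. Adgre1, Itgam, Ptprc, Tyrobp, Fcer1g, Aif1 and Marco were lower there than in both other controls. For Adgre1 the values were 2553 CPM against 3729 and 3781 CPM. Csf1r, Cd68, Lyz2, Mrc1 and Cd74 were higher there than in both other controls, and Cd14, C1qa and C1qb lay between. The macrophage markers were thus detected in every library of these cells, which the labels call mesenchymal stem cells. The part of macrophage content in the Mmp12 levels was not tested. By Pearson's r of log2 CPM over the 6 libraries, the genes most like Mmp12 were Itgax (r = 0.999), which encodes the integrin CD11c of dendritic cells and macrophages, Ccdc66 (r = 0.995) and Oscp1 (r = 0.995). These are the highest of 14624 correlations, each over 6 points that share their libraries. Itgax was at 1.20, 1.20 and 7.50 CPM in the controls and at 3.58, 2.53 and 4.92 CPM in the Ni libraries. The libraries ranked as for Mmp12, which its choice by the highest r makes likely. Control replicates 1 and 2, at 22 and 19 counts of Itgax, hardly differed.

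Mmp13, Mmp12 and Mmp3 lie in the MMP cluster of chromosome 9. The start regions of these genes are shown since they are neighbors whose levels differ widely. The libraries ranked in the same order for Mmp12 and Mmp3, and in another order for Mmp13. Promoter windows (250 bases before to 50 after a RefSeq start, build GRCm38.p6) covered 8 of the 10 members, all but Mmp2 and Mmp16. The windows were searched for the AP-1 letters TGANTCA and the RUNX letters TGTGGT on both strands and for TATAAA on the sense strand, found in 7.81%, 16.8% and 8.32% of 32851 windows of 300 bases. The 130 bases before the start are given below in lower case with these matches in capitals, all on the plus strand and including the neighbor Mmp10 for comparison.
Mmp13 (chr9:7272384-7272513): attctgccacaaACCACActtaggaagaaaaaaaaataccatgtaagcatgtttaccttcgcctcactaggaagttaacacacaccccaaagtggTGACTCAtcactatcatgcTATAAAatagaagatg
Mmp12 (chr9:7347244-7347373): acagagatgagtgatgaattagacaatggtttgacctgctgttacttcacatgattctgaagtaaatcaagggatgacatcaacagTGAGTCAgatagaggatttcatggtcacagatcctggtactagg
Mmp3 (chr9:7445692-7445821): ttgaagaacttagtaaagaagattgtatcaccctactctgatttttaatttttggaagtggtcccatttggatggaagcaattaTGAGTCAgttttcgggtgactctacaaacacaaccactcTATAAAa
Mmp10 (chr9:7502212-7502341): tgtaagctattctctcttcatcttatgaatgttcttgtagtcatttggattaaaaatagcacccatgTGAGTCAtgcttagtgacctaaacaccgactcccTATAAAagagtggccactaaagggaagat

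With -1 as the last base before the start, the AP-1 letters stood at -35 to -29 in Mmp13, at -44 to -38 in Mmp12, at -46 to -40 in Mmp3 and at -63 to -57 in Mmp10. In Mmp13 they are TGACTCA and in the other genes TGAGTCA. Mmp13 also held TATAAA at -16 to -11 and, on the minus strand, the RUNX letters (ACCACA when written on the plus strand) at -118 to -113. In Mmp12 the TATAAA letters lay after the start, at 5 to 10. The Mmp12 stretch shown lies inside the span of the gene. The window of another RefSeq start, at the beginning of the gene (130 bases before it at chr9:7344267-7344396), held none of the 3 motifs. The window of Mmp8, another gene of the cluster, was searched too and also held none of the 3. Outside the cluster, the window of Mmp14 held the RUNX letters at -114 to -109, and those of Mmp11, Timp1, Timp2 and Timp3 held none of the 3. These matches are letters in a window, and binding was not measured.

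**Figure D3:**
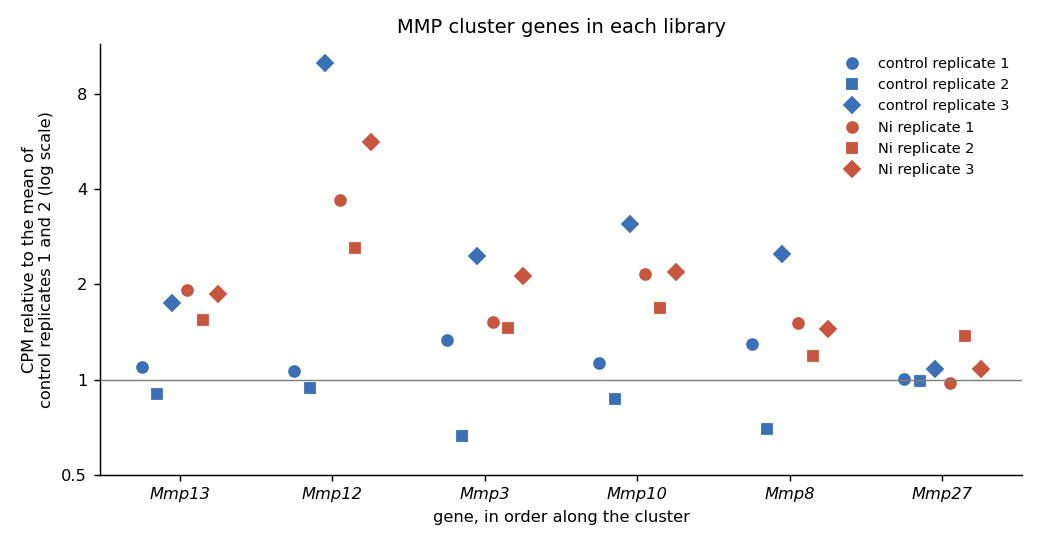
Genes of the chromosome 9 MMP cluster in each library. The vertical axis is CPM divided by the mean of control replicates 1 and 2, on a log scale, and the genes follow their order along the cluster. Control replicate 3 is the highest library for Mmp12 (10.1 times that mean), Mmp3, Mmp10 and Mmp8.

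Transcripts of the AP-1 and RUNX factors were examined together with those of ETS factors and Sp7, whose binding letters were not searched. Of the 14 genes all were tested and 9 had log2 fold changes above 0, with a median of 0.06. At an unadjusted p under 0.05, 3 were higher in Ni, namely Fosl2 (log2 fold change 0.50), Runx2 (0.54) and Sp7 (0.88), the last 2 being regulators of osteoblast differentiation, and 1 was lower, Ets2 (-0.48). Among all genes tested, 7.59% were higher and 5.83% lower at that threshold. Runx2 was at 25.5, 22.2 and 27.7 CPM in the controls and 38.4, 30.9 and 40.0 CPM in Ni, without overlap. Fosl1 (0.60) and Runx3 (0.61) did not reach that p, and both had a control replicate 3 value near those of the Ni libraries. None of the 14 passed after adjustment with all libraries, and without control replicate 3 Fosl1, Fosl2, Runx2, Runx3 and Sp7 passed as higher and Ets2 as lower. In that fit 8.69% of the genes tested passed as higher and 6.49% as lower.

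The gelatinase Mmp2 (ENSMUSG00000031740, chr8:92827291-92853420, plus strand) was at 209, 209 and 295 CPM in the controls and at 384, 293 and 337 CPM in the Ni libraries. The groups overlapped, with control replicate 3 just above Ni replicate 2. The means were 238 ± 49.6 and 338 ± 45.6 CPM (SD, n = 3 each), a log2 fold change of 0.51 (SE 0.16, interval 0.15 to 0.86, edgeR adjusted p = 0.299). The value without control replicate 3 was 0.70 (adjusted p = 0.00126).

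Mmp14 (ENSMUSG00000000957, chr14:54431612-54445364, plus strand), the membrane enzyme that activates proMMP2, was at 225, 241 and 346.0 CPM in the controls and at 383, 362 and 346.2 CPM in Ni. The groups did not overlap, but control replicate 3 and Ni replicate 3 differed by less than 1 CPM. The log2 fold change was 0.43 (SE 0.16, interval 0.08 to 0.78, edgeR adjusted p = 0.334, exact permutation p = 0.1, the smallest possible). Leaving out control replicate 3 gave 0.65 (adjusted p = 0.000503).

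Mmp16 (ENSMUSG00000028226, chr4:17852893-18119145, plus strand), another membrane-type MMP, had the highest log2 fold change of the members in the edgeR fit with all libraries, but not on log2(FPKM + 1), where it was 0.56 and that of Timp1 0.86, nor without control replicate 3, where that of Mmp12 was higher. Its counts were 77, 76 and 165 in the controls and 266, 179 and 265 in the Ni libraries. In CPM it was at 4.21, 4.79 and 9.90 against 14.4, 10.3 and 14.6, with no overlap between groups. The means were 6.30 ± 3.13 and 13.1 ± 2.45 CPM (SD, n = 3 each), and the log2 fold change was 1.06 (SE 0.31, interval 0.35 to 1.77, edgeR adjusted p = 0.294). It was the 1 member at an adjusted p under 0.05 by DESeq2 (log2 fold change 1.07, adjusted p = 0.0371), a rule that called 1.49% of 14065 genes as higher. With no filter on low counts in edgeR, 4 members passed as higher (Mmp2, Mmp13, Mmp14 and Mmp16), beside 2.55% of 25876 genes. The groups of Mmp2 and Mmp13 still overlapped. The standard error of Mmp13 was 0.13 in that fit and 0.23 with the filter, from the same counts. The log2 fold change of Mmp16 without control replicate 3 was 1.55 (adjusted p = 0.000479).

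The genes most like Mmp16 over the 6 libraries were Fmod, which encodes the collagen-binding proteoglycan fibromodulin (r = 0.999), Aaas (r = 0.999) and Galnt5 (r = 0.999), the highest of 14624 correlations over 6 points. Fmod was at 147, 160 and 327 CPM in the controls and at 493, 344 and 471 CPM in the Ni libraries. Among the members, the correlations of Mmp16 ranged from 0.662 with Mmp3 to 0.979 with Mmp2. The closest pair of members was Mmp14 with Timp2 (r = 0.991), and the most distant was Mmp2 with Mmp11 (r = 0.605). All pairs were positive, and the points share both their libraries and the position of control replicate 3.

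The inhibitor Timp1 (ENSMUSG00000001131, chrX:20870166-20874735, plus strand) was at 343, 358 and 730 CPM in the controls and at 785, 811 and 833 CPM in the Ni libraries. The groups did not overlap, and the Ni libraries were close together while the controls were not. The means were 477 ± 219 and 810 ± 23.8 CPM (SD, n = 3 each), a log2 fold change of 0.76 (SE 0.28, interval 0.13 to 1.40, edgeR adjusted p = 0.334, exact permutation p = 0.1). The value without control replicate 3 was 1.21 (SE 0.09, adjusted p = 3.02e-05), the lowest adjusted p of the members. Timp1 lies within the span of Syn1 on the other strand and shares 0 exon bases with it. Syn1 was at 12.8, 13.5 and 8.34 CPM in the controls and at 7.00, 8.12 and 4.70 CPM in Ni.

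Timp2 (ENSMUSG00000017466, chr11:118301069-118355740, minus strand) was at 835, 832 and 1157 CPM in the controls and at 1238, 1167 and 1180 CPM in Ni. Here too the groups did not overlap, although control replicate 3 and Ni replicate 2 were close. The means were 941 ± 187 and 1195 ± 37.8 CPM (SD, n = 3 each), a log2 fold change of 0.34 (SE 0.15, interval 0.02 to 0.67, edgeR adjusted p = 0.358, exact permutation p = 0.1). Leaving out control replicate 3 gave 0.52 (adjusted p = 0.00132).

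Timp3 (ENSMUSG00000020044, chr10:86300372-86349506, plus strand), which also inhibits ADAM and ADAMTS proteases, was at 284, 305 and 635 CPM in the controls and at 516, 623 and 516 CPM in the Ni libraries. Control replicate 3 was the highest of all 6. The log2 fold change was 0.44 (SE 0.30, interval -0.25 to 1.12, edgeR adjusted p = 0.561), and 0.91 without control replicate 3 (adjusted p = 0.000223). Exons of Timp3 share 21.3% of their bases with Syn3 on the other strand, which had between 0 and 19 counts in a library. Reads from the shared bases cannot be told apart by strand here either.

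**Figure D4:**
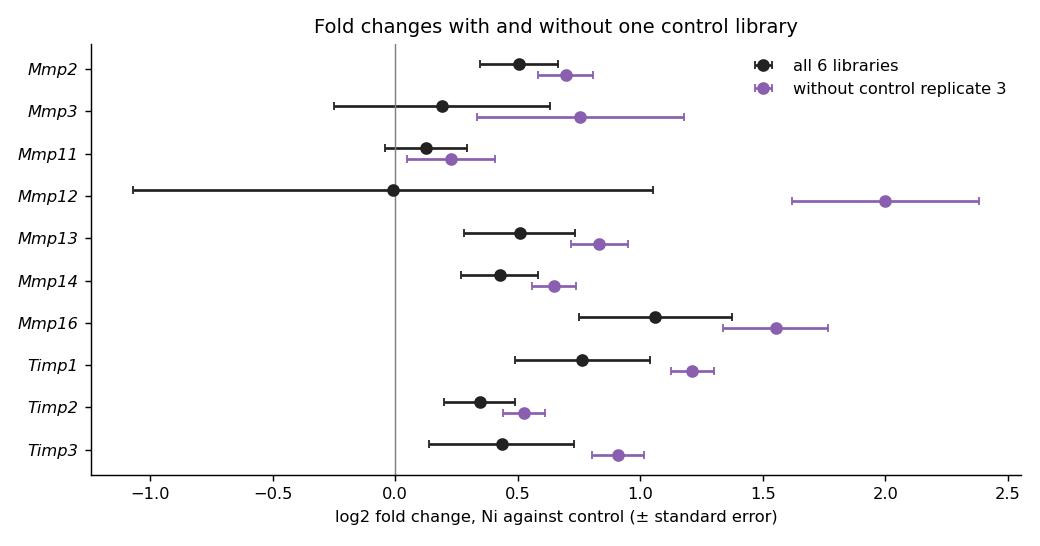
Log2 fold change (Ni against control) of the 10 members from edgeR with all 6 libraries (black) and without control replicate 3 (purple). Bars are ± 1 standard error and the line at 0 marks equal levels. Without control replicate 3 all 10 estimates lie above 0, and the estimate of Mmp12 moves from -0.01 to 2.00.

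The balance of proteases and inhibitors was read from the summed transcript levels. The FPKM of the 7 MMPs summed to 479, 413 and 763 in the controls and to 844, 680 and 811 in the Ni libraries. Those of the 3 TIMPs summed to 631, 650 and 1185 against 1262, 1276 and 1299. The ratio of the sums (MMP over TIMP) was 0.758, 0.635 and 0.644 in the controls and 0.669, 0.533 and 0.624 in the Ni libraries, and the groups overlapped. For the activation trio, the ratio of Mmp14 to Timp2 was 0.176, 0.189 and 0.196 in controls against 0.202, 0.203 and 0.192 in Ni, and that of Mmp2 to Timp2 was 0.290, 0.291 and 0.295 against 0.358, 0.290 and 0.330. Both ratios overlapped between groups. These are transcript ratios, and protein and enzyme activity were not measured.

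**Figure D5:**
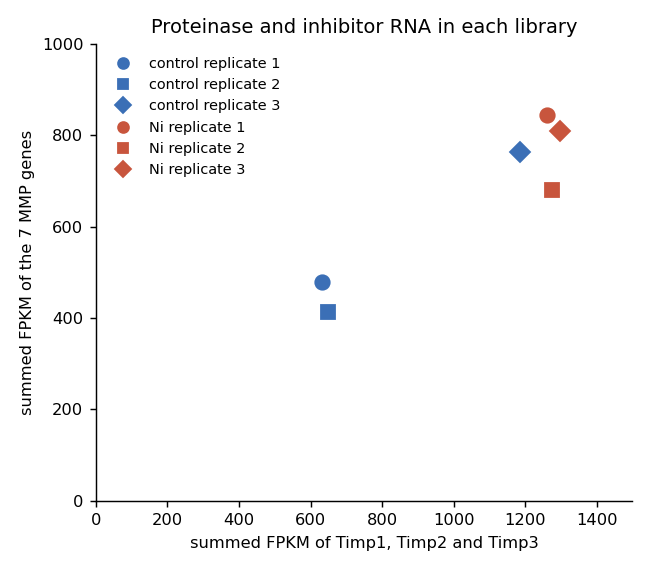
Summed FPKM of the 7 MMP members (vertical) against summed FPKM of the 3 TIMP members (horizontal), one point per library. Colors mark control and Ni. Control replicates 1 and 2 lie at low values on both axes, and control replicate 3 lies beside the Ni libraries.

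Of 17 other MMP and TIMP genes, 9 passed the filter on low counts, 6 of them with log2 fold changes above 0, with a median of 0.18. At an unadjusted p under 0.05, Mmp23 was higher in Ni (log2 fold change 0.40, groups not overlapping) and Mmp9, a gelatinase abundant in osteoclasts, was lower (-0.83). The shares of all genes tested were 7.59% higher and 5.83% lower. Mmp9 was at 53.2, 75.7 and 86.5 CPM in controls and at 36.8, 59.5 and 25.1 CPM in Ni, overlapping between groups. The others were Mmp8 (-0.12), Mmp10 (0.24), Mmp15 (-0.00), Mmp17 (0.18), Mmp19 (0.20), Mmp27 (0.15) and Mmp28 (0.30). Mmp1a and Mmp7 had 0 counts in every library, which allows up to 3 counts, or 0.163 to 0.189 CPM. Mmp1b, Mmp20, Mmp21, Mmp24 and Mmp25 were under 10 counts, and Timp4 had low counts, so none of them was tested. Without control replicate 3, Mmp19 (0.41, edgeR adjusted p = 0.0139) and Mmp23 (0.63, adjusted p = 0.00109) passed as higher, beside 8.69% of the genes tested in that fit.

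Of 15 genes that activate or clear MMPs, or that belong to the plasminogen system, 13 were tested. Fitted log2 fold changes were above 0 for 12 of them, beside 7028 of the 14624 genes tested, and the median was 0.30. An unadjusted p under 0.05 was reached by 5, all higher in Ni, beside 7.59% of all genes tested that were higher. The groups did not overlap in 4 of them, beside 7.97% of all genes tested with every Ni library above every control library. Among the 5 were Pcsk6 (1.46), a proprotein convertase, Reck (0.45), a membrane-anchored MMP inhibitor, Spock2 (1.01, groups overlapping) and Serpine2 (0.53). Pcsk6 was at 8.47, 8.57 and 12.4 CPM in the controls and at 31.8, 17.5 and 31.4 CPM in Ni. None passed after adjustment with all libraries, and 10 passed as higher without control replicate 3, beside 8.69% of the genes tested in that fit. Plg, which encodes plasminogen, had 0 counts in all libraries.

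The ADAM and ADAMTS proteases, which TIMP3 can inhibit, were mixed. Of 27 genes 21 were tested, 13 with log2 fold changes above 0 and 8 below, and the median was 0.12. At an unadjusted p under 0.05, 5 were higher in Ni (Adam12 0.73, Adam19 0.42, Adamts1 0.46, Adamts2 0.38 and Adamts12 0.71) and 2 were lower (Adam17 -0.28 and Adamts5 -0.26). The shares of all genes tested were 7.59% higher and 5.83% lower. None of the ADAM and ADAMTS genes passed after adjustment with all libraries. Without control replicate 3, 7 passed as higher and 2 as lower, beside 8.69% and 6.49% of the genes tested in that fit.

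Marker lists of the cell types that the cultures could hold moved as follows, at an unadjusted p under 0.05. The shares of all genes tested at that threshold were 7.59% higher and 5.83% lower, and no marker passed after adjustment with all libraries. All 10 osteoblast markers were higher in Ni (median log2 fold change 1.27), with summed levels of 5316 to 11941 CPM in the controls and 11225 to 16358 CPM in Ni. Spp1 and Mepe overlapped between groups. Of 10 stromal markers, 4 were higher (Col3a1, Ly6a, Vim and Dcn) and 1 lower (Cxcl12). Of 5 osteoclast markers tested, Acp5 was lower (-0.90) and the other 4 had log2 fold changes above 0 without reaching that p, such as Ctsk (0.62). Acp5 held 1013 and 1190 CPM in control replicates 1 and 2, most of the list's sum, and the summed level of all 9 was 1167 and 1348 CPM in control replicates 1 and 2, 645 CPM in control replicate 3 and 669 to 716 CPM in Ni. Of 8 endothelial markers Pecam1 was lower, and neutrophil markers summed to at most 3.24 CPM with S100a9, Ltf, Ngp and Retnlg at 0. Among the 2 B-cell markers tested (Cd79b -0.81, Ebf1 0.05) and the 1 erythroid marker tested (Epor -0.44) none reached that p, with Ms4a1, Hba-a1 and Hbb-bs at 0. The osteoblast sums were high in the libraries in which the members were high, control replicate 3 included, and their part in the members' differences was not tested.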

How the data were processed

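RNA was sequenced from mouse BMSCs after 7 days of osteogenic induction, with 3 control and 3 Ni libraries of 16101033 to 18642504 counts each (libraries prepared with a kit that does not mark strand). The authors deposited raw counts per gene without normalization, for 54532 genes, on build GRCm38 per the submitters' processing notes. They also deposited FPKM values, which equal the counts divided by gene length and one factor per library (largest relative deviation 3.29e-07). The aligner, the counter and its strand setting are not given in the sources used here. Groups follow the sample labels. Replicates differed by more than sampling noise (chi-square over its degrees of freedom, 4.51 to 46.3).

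Genes were kept by filterByExpr (minimum count 10), which left 14624, normalized by TMM and fitted with edgeR 4.0.16 in R 4.3.3 (glmQLFit robust, prior count 0.125, glmQLFTest), with Benjamini-Hochberg adjustment over all genes tested. Standard errors are unshrunk coefficients over the square root of F. Overlap of groups was read from CPM scaled by TMM factors, and correlations used log2 CPM with a prior count of 2. The fit was tested on simulated data. Alternatives were DESeq2 1.42.0, other scaling, no filter, limma 3.58.1 on log2(FPKM + 1) and log2(FPKM + 0.1), a replicate block and leaving out each library. Levels between genes are per length (FPKM). Gene and exon coordinates were compared with GENCODE M21. All 10 members are named. Other MMP and TIMP genes are all named, and in every other list those with an unadjusted p under 0.05, or else the 2 with the smallest p, except that some genes under this rule are not reported here. For the members with the highest and lowest log2 fold change, the 3 genes with the highest Pearson r are named. Fosl1, Runx3, Ctsk, Syn1, Syn3 and the genes passing only without control replicate 3 were named after their values were seen. So were Lyz2, Adgre1 and the other macrophage markers placed by their level in control replicate 3. The members and the lists were chosen with earlier results of these data known.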

Additional observations from a re-analysis of the deposited data

How the results depend on the processing

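The number of members at an adjusted p under 0.05 was 0 with all libraries and ranged from 0 to 8 when each library was left out in turn, with 8 only without control replicate 3. It was 1 with DESeq2 and 4 with no filter on low counts. The number at an unadjusted p under 0.05 ranged from 2 (without control replicate 1 or 2) to 8 (without control replicate 3) over the left-out libraries, beside 4% to 15.2% of all genes tested that were higher in those fits. The number of members whose groups do not overlap ranged from 4 to 10, all higher in Ni, beside 10.2% to 22.2% of all genes, since smaller groups separate more often. The 10, with 22.2% of all genes, came without control replicate 3. With the replicate number as a block, 1 member passed at an adjusted p under 0.05 (Mmp16, 1.13, adjusted p = 0.0461), and 227 genes were higher and 88 lower where the fit without the block had 0. Deviations of same-numbered libraries correlated at 0.01, 0.26 and 0.14, so the numbers were not taken to pair the samples.

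The direction of Mmp12 turned to 0.62 on log2(FPKM + 1), to 0.79 on log2(FPKM + 0.1) and to 0.77 with the replicate block, and lay from -0.48 to 2.00 over the left-out libraries. That of Mmp3 lay from -0.15 to 0.76. The cause was not tested. Over 13 alternatives, 109 of 130 member values kept their direction and side of the threshold, 14 passed it and 8 turned, 1 of which (Mmp12 without control replicate 3) did both. Low counts limit the precision of Mmp3.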
